A study of Mus musculus with 6 samples.

Results

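The adenylyl cyclases examined here are the 9 membrane-bound enzymes encoded by Adcy1 to Adcy9, which make cyclic AMP from ATP. The members were taken by gene symbol, and all 9 were among the 21938 genes of the deposited table. The family was chosen by the measured control and mutant values of Adcy8, which was low in the mutants. The Adcy8 difference is therefore given as a description of these libraries and supports nothing further.

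The libraries were made from soft palate of mouse embryos at E14.0, during palate formation. The 3 control libraries (replicates 1, 2 and 3) came from b-cateninfl/fl embryos and carry the floxed b-catenin allele without Cre, although the genotype field of the labels calls them wild type. The 3 mutant libraries (replicates 5, 6 and 7) came from Osr2-Cre;b-cateninfl/fl embryos, in which Cre recombinase driven by Osr2 acts on the floxed b-catenin gene in Osr2-expressing cells, so cells of other lineages in the same tissue keep the gene unless they have expressed Osr2. The labels do not say whether a library is 1 embryo or a pool, and p-values therefore measure the spread between these libraries, which may be partly technical. The step between low values put the depth at 10018091 to 15086043 counted reads per library, so that 1 read was worth 0.0663 to 0.0998 CPM, the unit in which a gene's reads are scaled to the same total in every library.

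Membrane adenylyl cyclases are activated by the stimulatory G protein subunit and several of them are restrained by inhibitory G proteins. They differ in their other inputs: calcium-calmodulin stimulates ADCY1, ADCY3 and ADCY8, G protein beta-gamma subunits stimulate ADCY2, ADCY4 and ADCY7, calcium inhibits ADCY5 and ADCY6, and ADCY9 responds poorly to the plant compound forskolin. The cyclic AMP they make acts through protein kinase A, the EPAC exchange factors and cyclic nucleotide-gated channels, and is broken down by phosphodiesterases. In the embryonic face, protein kinase A is known as a brake on Hedgehog signalling.

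The catalytic domains of the family are related in sequence, which bears on whether a short read can be placed on 1 member. The longest stretches that Adcy8 shares letter for letter with other members' coding sequences in GENCODE vM21 (GRCm38) are therefore shown, 5′ to 3′ on the coding strand, with the shared run in capitals and 15 bases of each gene on either side. The first pair shares 33 bases.
Adcy4: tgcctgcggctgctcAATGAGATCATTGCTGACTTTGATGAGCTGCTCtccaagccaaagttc
Adcy8: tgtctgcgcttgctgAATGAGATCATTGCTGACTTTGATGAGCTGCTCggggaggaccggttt
The next pair shares 25 bases.
Adcy6: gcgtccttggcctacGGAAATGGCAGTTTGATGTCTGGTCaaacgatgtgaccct
Adcy8: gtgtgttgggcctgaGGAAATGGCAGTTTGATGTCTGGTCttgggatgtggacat
The third pair shares 23 bases.
Adcy1: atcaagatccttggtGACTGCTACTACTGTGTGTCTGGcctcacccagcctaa
Adcy8: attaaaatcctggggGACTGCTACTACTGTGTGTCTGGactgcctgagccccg

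With the remaining 5 members Adcy8 shared no run above 15 bases. Over all pairs in the family, exact stretches of 31 bases were shared by Adcy4 with Adcy8, at 3 positions, and by Adcy4 with Adcy6, at 1 position. The 33 shared bases are a small piece of the 3747 coding bases of Adcy8 and the 3231 of Adcy4, and the letters on either side differ, as the lines above show. The sources used here do not give the read length.

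Each gene lies at its own locus. Adcy8 (ENSMUSG00000022376) is on the minus strand at chr15:64697084-64922296 and Adcy6 on the minus strand at chr15:98589973-98610076. The others are Adcy1 at chr11:7063489-7178506, Adcy2 at chr13:68620043-68999541, Adcy3 at chr12:4133103-4213525, Adcy4 at chr14:55769057-55784095, Adcy5 at chr16:35154877-35305738, Adcy7 at chr8:88272403-88329962 and Adcy9 at chr16:4287529-4420498, all on GRCm38. Osr2, whose regulatory sequence drives the Cre, is also on chromosome 15, 29.4 Mb from Adcy8 and 63.3 Mb from Adcy6. Of the 790 measured genes of that chromosome 8 were called different between groups, or 1.01%. Over the 21422 genes with a matched position the share was 0.485%. Those 8 include Adcy8, by which the family was chosen, and Osr2 itself, so the share carries no weight of its own. Whether chromosomal position has a part in the Adcy8 values was not tested.

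The labels were checked first. Ctnnb1, which encodes b-catenin, gave 699, 784 and 671 CPM in controls 1, 2 and 3 and 585, 633 and 582 CPM in mutants 5, 6 and 7. The mutant libraries were all below the controls, at 600 ± 29.1 against 718 ± 59.0 CPM (SD, n = 3 per group), and limma's adjusted p over all genes was 0.183. Osr2 was at 46.9 ± 11.2 CPM in controls and 16.1 ± 3.22 CPM in mutants, with a limma adjusted p of 0.0285. Every mutant and no control carries the Osr2-Cre allele. Effects of that allele and of b-catenin loss therefore cannot be told apart, for Osr2 or for any other gene here. Axin2, a feedback target of b-catenin signalling, was at 53.9 ± 6.86 and 37.1 ± 6.81 CPM, with a limma adjusted p of 0.104.

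A gene was called different when its limma p, adjusted by the Benjamini-Hochberg method over all 21938 genes, was below 0.05. Of the 9 adenylyl cyclase genes 1 was called lower in the mutants, Adcy8, and 0 were called higher. The authors' filtered list of 2432 genes held Adcy8 and 0 of the other 8 members, and it holds 11.1% of all genes. Across all genes 0.479% were called, 0.283% lower and 0.196% higher. At an unadjusted p below 0.05 there were 3 members, Adcy7, Adcy8 and Adcy9, where the share over all genes was 21.4%. The estimate was below 0 for 7 members and above 0 for 2, with a median log2 change of -0.16 against 0.04 over all genes. Control and mutant values did not overlap for 2 members, Adcy7 and Adcy8, and 27.8% of all genes had groups that did not overlap.

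**Figure D1:**
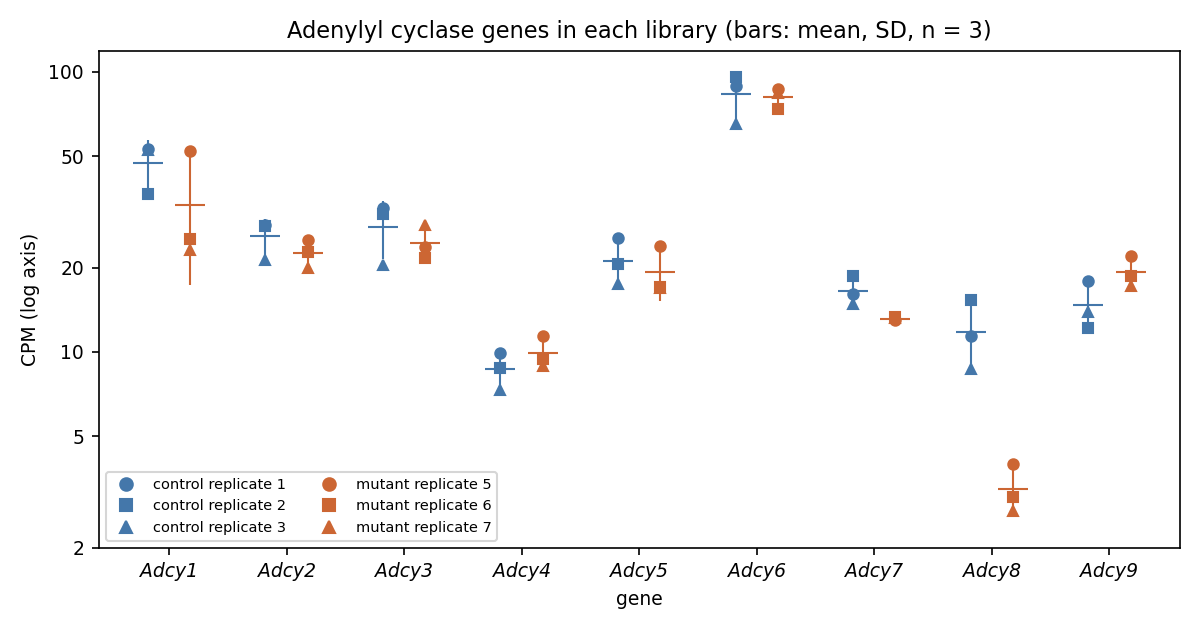
CPM of each adenylyl cyclase gene in each of the 6 libraries, on a log axis, with blue symbols for controls, orange symbols for mutants, and bars for the mean and SD of 3 libraries. The Adcy8 mutant libraries sit between 2.72 and 3.99 CPM, below all controls at 8.72 to 15.3 CPM, while Adcy6 is the highest gene in both groups.

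Among the calcium-calmodulin stimulated enzymes, Adcy8, known best from the brain, gave 11.4, 15.3 and 8.72 CPM in controls 1, 2 and 3 and 3.99, 3.04 and 2.72 CPM in mutants 5, 6 and 7, the order used for all genes below. The groups did not overlap, and the highest mutant was well below the lowest control. The control mean was 11.8 ± 3.29 CPM and the mutant mean 3.25 ± 0.663 CPM (SD, n = 3), so the controls were 3.63-fold higher. Measured as log2(CPM + 1), a scale that shrinks differences between low values, the change was -1.57 ± 0.23 (SE), with a 95% interval of -2.08 to -1.06 and a limma adjusted p of 0.0327. These levels correspond to 112.0 to 153.0 reads in a control library and 40.0 to 49.0 reads in a mutant library. Exact 95% Poisson intervals on those reads, which cover counting error only, were 9.60 to 13.4, 12.9 to 17.9 and 7.18 to 10.5 CPM for the controls and 2.95 to 5.28, 2.17 to 4.14 and 1.95 to 3.69 CPM for the mutants. In bulk tissue, fewer cells that express a gene and less RNA of it per cell cannot be told apart.

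The Adcy8 difference was -1.81 to -1.38 in all 11 other settings tried, but the call was kept in 4 of them and lost in 7. With the low control-3 library left out the adjusted p was 0.0819, with control 1 left out 0.105, and with mutant 5, 6 or 7 left out 0.0691, 0.109 or 0.152. It was 0.0702 without a trend in limma's prior variance and 0.0519 with a covariate for sex, read from Xist, which was high in control 3 and mutant 7. Leaving out control 2, the library with the highest Adcy8, kept the call at 0.0355. These values describe how the chosen difference moves with the setting and lend it no support.

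**Figure D2:**
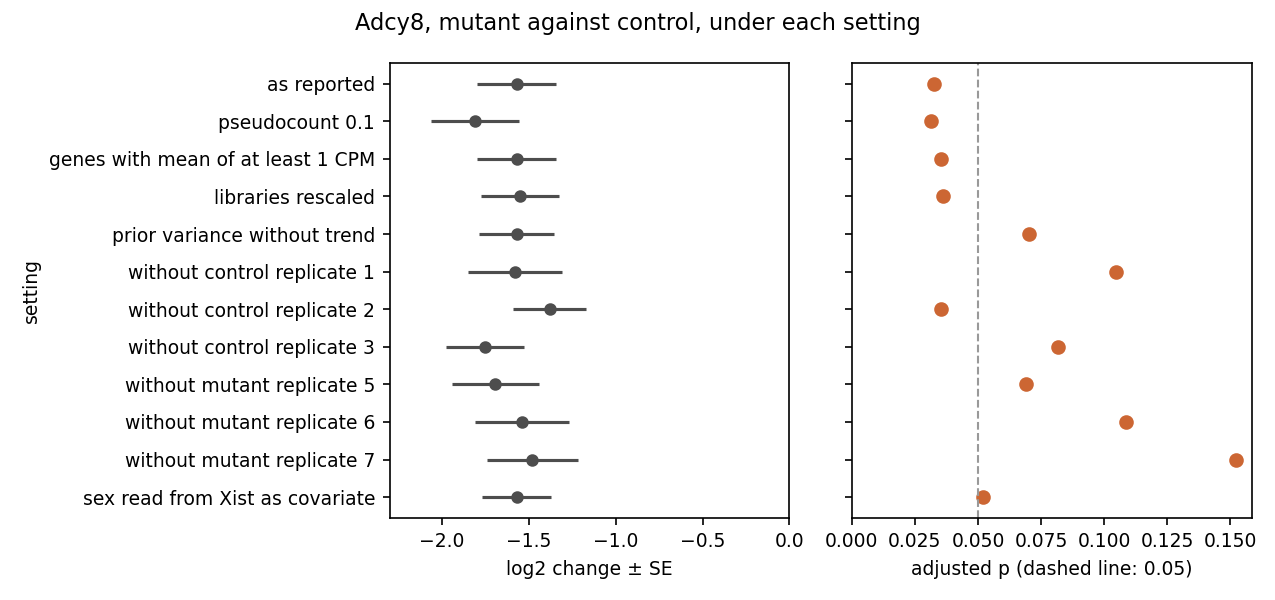
Log2 change of Adcy8 with its standard error (left) and limma adjusted p (right) in the reported setting and in 11 other settings, 1 per line, with a dashed line at 0.05. The change stays between -1.81 and -1.38, and the adjusted p ranges from 0.0313 to 0.152.

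Adcy8 was not the single lowest value among the 62 genes called lower. By log2 change it came after Rprl1, a gene for an RNA like that of ribonuclease P, which was at 3.07 CPM in controls and 0.207 CPM in mutants (log2 change -1.69, limma adjusted p 0.0448), a mutant level near that of 3 reads. The genes after Adcy8 were Tmem132c at -1.52 and Myog, a myogenic transcription factor, at -1.50.

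Adcy1, the neuronal calcium-stimulated cyclase, gave 53.2, 36.5 and 52.6 CPM in controls and 52.1, 25.4 and 23.1 CPM in mutants. Mutant 5 was as high as the controls, and the other mutants were below all of them. The means of 47.4 ± 9.44 and 33.5 ± 16.1 CPM (SD, n = 3) gave a log2 change of -0.56 ± 0.28 (SE), with a 95% interval of -1.21 to 0.08 and a limma adjusted p of 0.291. Leaving out 1 library moved the change from -0.92 without mutant 5 (limma adjusted p 0.0948) to -0.35 without mutant 7 (0.626). The 10 neuronal markers, of which 0 were called, summed to 938 CPM in mutant 5 against 234 and 356 CPM in mutants 6 and 7, and to 573, 619 and 1051 CPM in the controls. Their part in the Adcy1 values was not tested. Adcyap1r1, the receptor for the neuropeptide PACAP, gave 16.6, 9.78 and 18.4 CPM in controls and 23.5, 5.17 and 6.76 CPM in mutants. Its limma adjusted p was 0.534, and it was picked after its values were seen.

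Adcy3, the cyclase of olfactory neurons and of primary cilia, gave 32.5, 31 and 20.5 CPM in controls and 23.8, 21.6 and 28.3 CPM in mutants. The lowest library was a control and the groups overlapped, with a log2 change of -0.16 ± 0.18 (SE) and a limma adjusted p of 0.642. The change was -0.04 without control 1 and -0.36 without control 3 (limma adjusted p 0.924 and 0.250). Adcy3 shares 1380 exon bases, 22.1% of its exon length, with Cenpo on the opposite strand, a centromere protein gene at 14 CPM in controls and 16.9 CPM in mutants. The sources used here do not state whether reads were counted by strand, so reads of the shared bases cannot be told apart. The same holds for 605 exon bases of Adcy6 (8.92%) shared with Gm29331 and 189 of Adcy2 (4.49%) shared with Gm35161, whereas Adcy8 shared no exon base with another annotated gene. Markers of motile cilia, which are a different organelle, summed to 115 to 296 CPM in controls and 357 to 496 CPM in mutants with 0 of 12 called.

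Of the beta-gamma stimulated enzymes, Adcy7, known from blood and immune cells, gave 16.2, 18.7 and 14.9 CPM in controls and 13.0, 13.3 and 13.2 CPM in mutants. Every mutant was below every control, and the mutants lay close together. The means were 16.6 ± 1.93 and 13.1 ± 0.178 CPM (SD, n = 3), a log2 change of -0.31 ± 0.13 (SE) with a 95% interval of -0.60 to -0.01. The unadjusted limma p was 0.0441 and the adjusted p 0.220, so it was not called. The 10 macrophage markers, all measured, summed to 58.8 to 70.1 CPM in controls and 45.1 to 57.4 CPM in mutants with 0 called, and their part in the Adcy7 values was not tested.

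Adcy2 gave 28.3, 28.2 and 21.2 CPM in controls and 25.1, 22.8 and 19.9 CPM in mutants, with a log2 change of -0.18 ± 0.15 (SE) and a limma adjusted p of 0.508. Adcy4, known from endothelium, gave 9.92, 8.78 and 7.32 CPM in controls and 11.4, 9.43 and 8.95 CPM in mutants, with a log2 change of 0.18 ± 0.17 and an adjusted p of 0.573. Both sets of groups overlapped. With 1 library left out, Adcy2 ranged from -0.31 (without control 3) to -0.10 (without mutant 7) and Adcy4 from 0.07 (without control 3) to 0.27 (without control 1). The 10 endothelial markers summed to 356, 335 and 225 CPM in controls and 360, 282 and 261 CPM in mutants, so that control 3 was lowest and mutant 5 highest for these markers as for Adcy4, and their part was not tested.

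The calcium-inhibited pair had the estimates closest to 0. Adcy6, the broadly expressed member, gave 88.6, 95.5 and 65.1 CPM in controls and 87.0, 73.5 and 83.9 CPM in mutants. The control range enclosed the mutant range. Its log2 change was -0.01 ± 0.15 (SE), and the 95% interval of -0.34 to 0.32 corresponds to folds of 0.788 to 1.25, which bounds the size of a change that these libraries could have missed. Adcy5, the main cyclase of striatum and a heart isoform, gave 25.6, 20.6 and 17.4 CPM in controls and 24.0, 17.0 and 16.9 CPM in mutants, with a log2 change of -0.13 ± 0.18 and a limma adjusted p of 0.713. The sign of both estimates turned in some settings, so neither has a direction here.

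Adcy9, the most divergent member, gave 17.9, 12.2 and 13.9 CPM in controls and 22.0, 18.7 and 17.2 CPM in mutants. Control 1 lay above mutant 7, so the groups overlapped. The means were 14.7 ± 2.94 and 19.3 ± 2.44 CPM (SD, n = 3), a log2 change of 0.38 ± 0.17 (SE) with a 95% interval of 0.01 to 0.76, an unadjusted limma p of 0.0464 and an adjusted p of 0.225. It was not called.

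**Figure D3:**
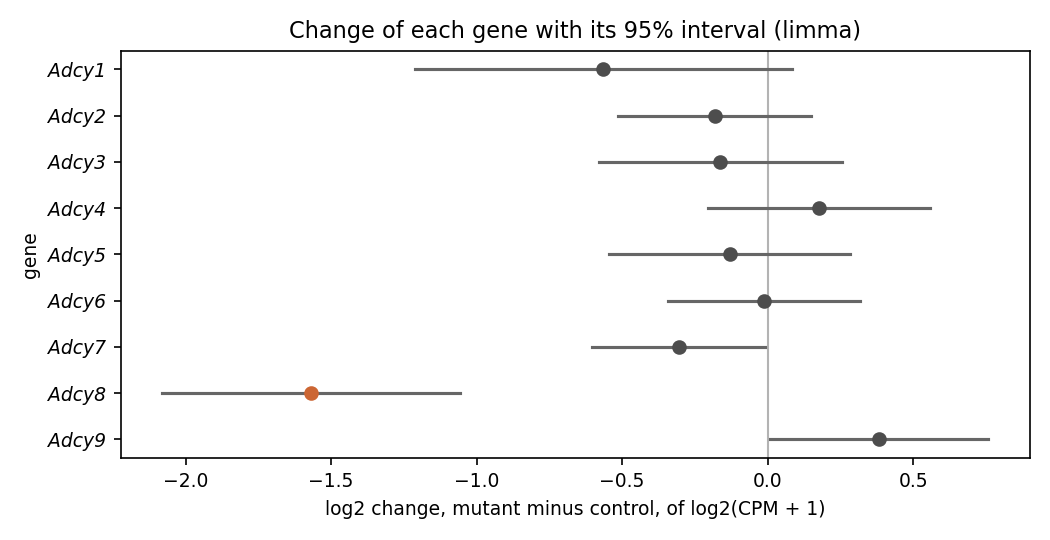
Log2 change of each adenylyl cyclase gene, mutant minus control on the log2(CPM + 1) scale, as points with 95% limma intervals, with the called gene in orange. The interval of Adcy8 (-2.08 to -1.06) lies below every other point estimate, and the intervals of Adcy7 and Adcy9 end just short of 0.

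Levels of different genes were compared per kilobase of exon, taking all annotated exon bases of a gene as its length. That length was 12522 bases for Adcy1 and 4211 to 8152 for the others, while coding lengths were 3231 to 4059 bases. The order, shares and class sums below rest on this choice, and no other length was tried. In the control libraries the order by mean was Adcy6 (12.2 CPM per kb), Adcy2 (6.15), Adcy3 (4.48), Adcy1 (3.79), Adcy5 (2.95), Adcy9 (2.82), Adcy7 (2.46), Adcy4 (1.86) and Adcy8 (1.45). Between neighbours in this order the control ranges were apart only for Adcy6 over Adcy2 and for Adcy7 over Adcy4, and the other 6 neighbouring pairs overlapped. In the mutants the order was Adcy6 (12.01 CPM per kb), Adcy2 (5.37), Adcy3 (3.93), Adcy9 (3.72), Adcy5 (2.69), Adcy1 (2.68), Adcy4 (2.12), Adcy7 (1.95) and Adcy8 (0.399). There the ranges were apart for Adcy6 over Adcy2, Adcy2 over Adcy3 and Adcy7 over Adcy8. Adcy8 was therefore the lowest member per kilobase of annotated exon in both groups, and its range reached that of Adcy4 in the controls. In CPM without division by length, Adcy4 was the lowest member in the controls (mean 8.67 against 11.8 for Adcy8) and Adcy8 in the mutants.

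**Figure D4:**
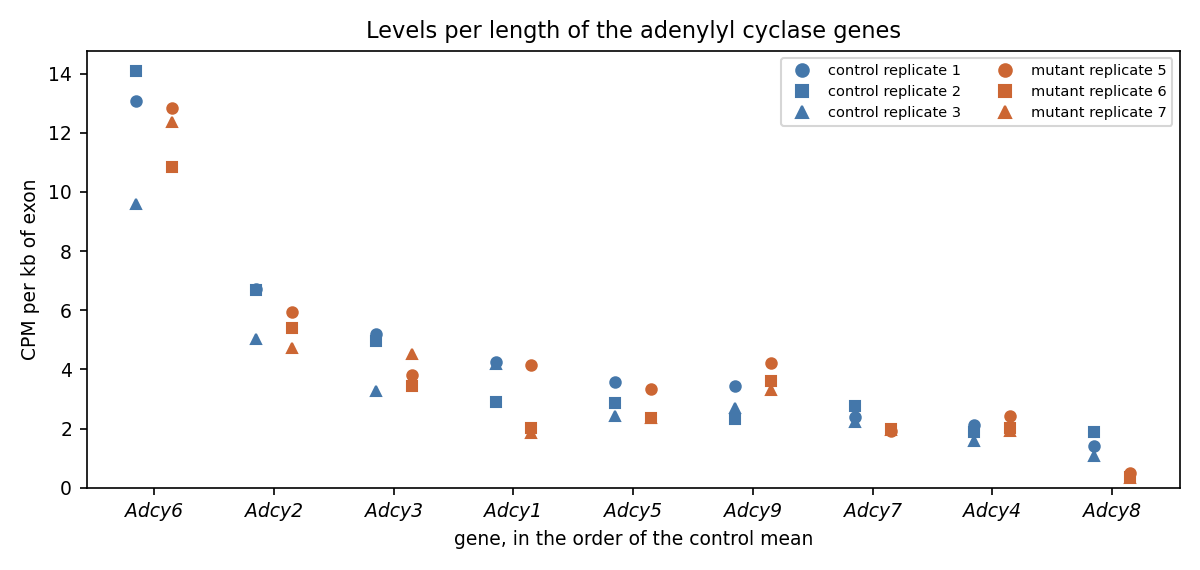
CPM per kilobase of exon of each adenylyl cyclase gene in each library, ordered by the control mean, with blue symbols for controls and orange symbols for mutants. Adcy6 stands above the rest in both groups at means of 12.2 and 12.01, and Adcy8 is last at 1.45 and 0.399.

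Summed over the family, the level was 38.2 ± 5.38 CPM per kb in controls, from 32.1 to 42.2, and 34.9 ± 3.78 in mutants, from 32.1 to 39.2 (SD, n = 3). The groups overlapped, and Adcy8 was a small share of that sum. Adcy8 made up 3.76% ± 0.759 of the controls' summed level and 1.14% ± 0.127 of the mutants'. Adcy6 made up 31.9% and 34.5%. Adcy9 made up 5.80% to 8.36% in controls and 9.94% to 11.2% in mutants, and Adcy4 4.86% against 6.09% on average. Shares are tied to one another, so a lower share of 1 member raises the others.

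By regulatory class, the calcium-calmodulin stimulated genes summed to 9.72 ± 1.15 CPM per kb in controls and 7.01 ± 1.32 in mutants, with the ranges just apart (8.55 to 10.9 against 5.86 to 8.45). That class holds Adcy8, which chose the family, so the gap carries no weight of its own. The beta-gamma stimulated class was at 10.5 and 9.45 CPM per kb and the calcium-inhibited class at 15.2 and 14.7, both overlapping. These are RNA levels, and enzyme activity and cyclic AMP were not measured.

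The genes whose values over the 6 libraries were most like those of Adcy8, among genes with a mean no lower than the 10.2 CPM median, were Fxyd6 (Pearson r 0.995), Pcx (0.993), Flcn (0.991), Grn (0.991) and Slco5a1 (0.991). Fxyd6 encodes a regulator of the sodium pump, Pcx the mitochondrial enzyme pyruvate carboxylase, Flcn folliculin, Grn progranulin and Slco5a1 a member of the organic anion transporter family. Likeness to Adcy8 fixes their direction. As a description, mutant values lay below all controls in each, as in 10.8% of all genes, with log2 changes of -0.67, -0.65, -0.37, -0.44 and -0.60, and 0 of the 5 was called (limma adjusted p 0.0681 to 0.126). With 6 libraries and many genes such r values describe the order of the libraries and nothing more.

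Marker lists of the cell types that the tissue could hold were read in the same libraries. The 20 skeletal muscle markers, all measured, had estimates below 0 and 9 were called lower, among them Myog, Myod1, Pax7 and Des, and their summed level was 15853, 7588 and 11518 CPM in controls and 5036, 6224 and 5143 CPM in mutants. Control 2 was the lowest control for this sum, though not for every marker in it, and the highest for Adcy8. It was also the highest control for the summed macrophage, Schwann cell, epithelial and motile cilium markers, but not for the other lists. The 10 smooth muscle and pericyte markers summed to 552, 484 and 473 CPM in controls and 361, 349 and 300 CPM in mutants, with 1 called lower, Acta2. Much of that gap was Acta2 alone, at 189, 107 and 174 CPM in controls and 51.5, 62.3 and 56.5 CPM in mutants. The median log2 change of the 10 markers was -0.28, and 1 of them, Cnn1, had an estimate above 0. Schwann cell markers summed to 252 to 280 CPM in controls and 199 to 259 CPM in mutants with 1 called lower, Ngfr, and palatal mesenchyme markers to 816 to 854 and 622 to 765 CPM with 1 called lower, Osr2 itself. Epithelial markers summed to 982 to 1628 and 1268 to 1896 CPM. Erythroid markers, 8 of 10 measured, summed to 1518 to 4552 and 754 to 1315 CPM. No measured marker of the 10 lists was at 0 in a library, and the part of any of these cell types in the Adcy8 values was not tested.

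Around the cyclases, 132 of 151 listed genes of cyclic AMP signalling were measured. Of these 1 was called lower, Cap2, and 0 were called higher. At an unadjusted limma p below 0.05 there were 18, or 13.6%, where all genes gave 21.4%, and the median log2 change was -0.07. The lists are described here from input to output.

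Receptors and G proteins held no call. Of 18 measured genes listed as stimulatory receptors 0 passed even the unadjusted p. The smallest p were those of Lgr4, an R-spondin receptor whose coupling was not examined, at 115 and 136 CPM (limma adjusted p 0.340), and Adrb1, the beta-1 adrenergic receptor, at 4.11 and 6.21 CPM (0.352). Of 16 inhibitory receptors 1 passed the unadjusted p, Lpar1 for lysophosphatidic acid, at 118.5 ± 9.86 CPM in controls and 89.0 ± 8.78 CPM in mutants (log2 change -0.41, limma adjusted p 0.0912), followed by the GABA receptor subunit gene Gabbr2 at 6.80 and 3.34 CPM (0.264). Of 7 alpha subunit genes 1 passed the unadjusted p, Gnai3, at 152.6 and 130.3 CPM (-0.23, limma adjusted p 0.174), and Gnai2 was next at 281 and 247 CPM (0.269). Both encode inhibitory subunits. The stimulatory subunit gene Gnas had a log2 change of -0.32 and a limma adjusted p of 0.278.

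Cap2, the called gene, encodes an actin regulator of striated muscle whose yeast relative was found bound to adenylyl cyclase. It gave 32.1, 25.4 and 30.8 CPM in controls and 12.8, 14.7 and 14.9 CPM in mutants. The groups stood well apart, and Cap2 fell by 1.0 on the log2 scale (SE 0.13, limma adjusted p 0.0285). Its call, like those of Osr2 and the markers named above, ended in the 6 settings in which 0 genes were called: no variance trend, the sex covariate, and without control 1, control 3, mutant 5 or mutant 6. Its list is of 12 regulators, with a median change of -0.05, and the next gene was Calm3, a calmodulin gene, at 282 and 237 CPM (limma adjusted p 0.143). The order of Cap2 was that of the summed skeletal muscle markers given above within the controls, but not within the mutants. There Cap2 was highest in mutant 7 (14.9 CPM) and the muscle sum in mutant 6 (6224 CPM). The part of skeletal muscle in the Cap2 values was not tested.

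The list of protein kinase A subunits and inhibitors, 9 measured, held 0 calls. The unadjusted limma p was below 0.05 for 4 of them (44.4%), all with estimates below 0, where all genes gave 21.4%. They were the catalytic subunit gene Prkaca, the regulatory subunit gene Prkar1b and the inhibitor genes Pkia and Pkig. A catalytic subunit and inhibitors act on the kinase in opposite ways, so the shared sign gives no direction for its activity. Prkaca, the main catalytic subunit, was at 104.4 ± 10.3 CPM in controls and 73.7 ± 2.87 CPM in mutants (SD, n = 3), a log2 change of -0.49 with a limma adjusted p of 0.0621. Pkig, a kinase inhibitor, was at 28.1 and 20.9 CPM (limma adjusted p 0.120). Of 13 anchoring proteins 0 were called, and 4 (30.8%, against the same 21.4%) passed the unadjusted p, all with estimates above 0. Akap9, a scaffold of the Golgi and centrosome, was at 365 ± 33.4 and 509 ± 32.8 CPM (log2 change 0.48, limma adjusted p 0.0682), and Akap14, an anchoring protein of motile cilia, at 2.25 ± 0.820 and 5.51 ± 0.922 CPM (1.03, limma adjusted p 0.0773). The summed motile cilium markers, given above, were higher in every mutant than in every control, although single markers such as Foxj1 overlapped, and their part in the Akap14 values was not tested.

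Phosphodiesterases, 15 measured, held 0 calls and a median of 0.00, with Pde8b, a high-affinity cyclic AMP enzyme, at 8.93 and 13.3 CPM (limma adjusted p 0.120) and Pde1a at 11.2 and 8.0 CPM (0.316). The other effectors, 10 measured, also held 0 calls, with Bves, a Popeye-domain cyclic AMP binding protein of muscle, at 3.31 and 2.12 CPM (limma adjusted p 0.206) and the exchange factor gene Rapgef4 at 4.89 and 7.05 CPM (0.263).

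At the output end, 13 genes of the CREB family and its coactivators held 0 calls, with the kinase gene Sik2 at 37.6 and 48.2 CPM (limma adjusted p 0.127) and Creb3 at 20.9 and 17.4 CPM (0.229). Of 14 measured CREB target genes 0 passed the unadjusted p, with Per1 at 39.0 and 31.02 CPM and Egr1 at 29.7 and 24.3 CPM at the smallest p (limma adjusted p 0.239 and 0.259). The last list gave values for 7 genes, all guanylyl cyclases or natriuretic peptide receptors, and soluble adenylyl cyclase itself was not analysed here. Of these 7 genes 0 were called, with the natriuretic peptide receptor genes Npr3 at 67.2 and 45.9 CPM (0.188) and Npr2 at 32.0 and 26.9 CPM (0.381) at the smallest limma p.

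**Figure D5:**
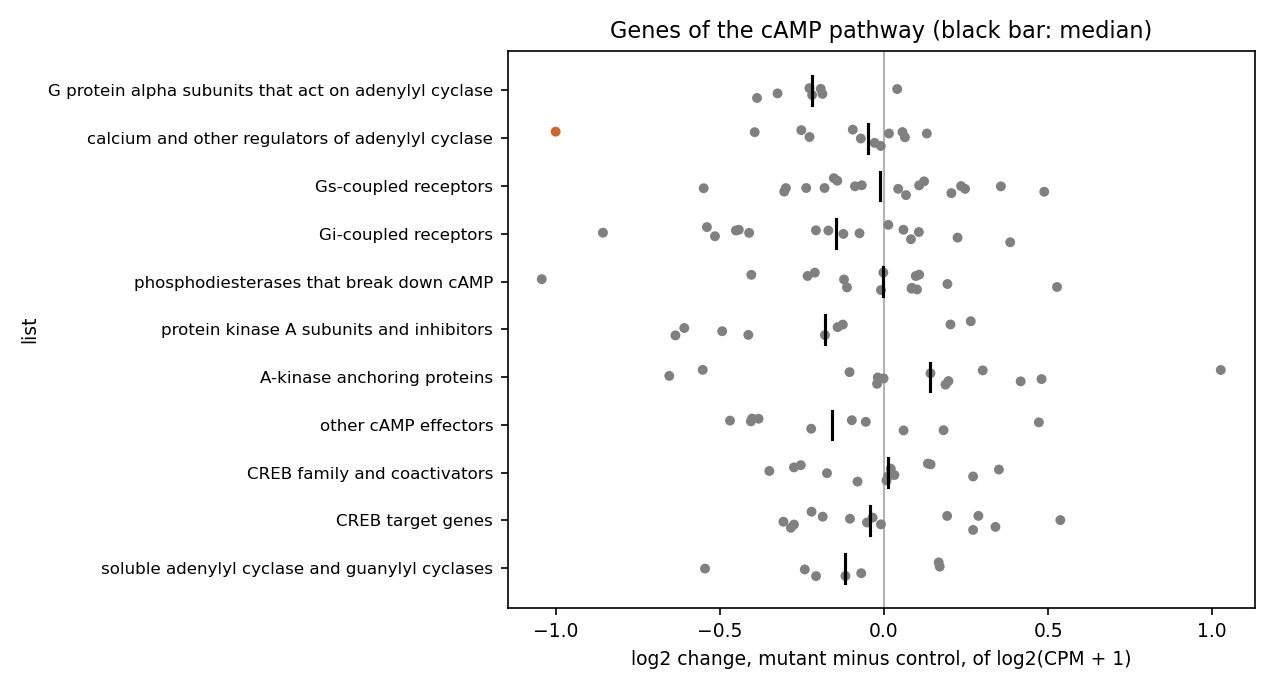
Log2 change, mutant minus control on the log2(CPM + 1) scale, of the measured genes of 11 lists of cyclic AMP signalling, 1 point per gene, with a black bar at each list's median and called genes in orange. Cap2 is the called gene, at -1.0, and the medians lie between -0.22 and 0.14.

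Promoter letters were read from RefSeq for 7 of the 9 members, giving 10 promoters of 300 bases on GRCm38.p6. The letters CTTTGAT, a TCF/LEF match searched on both strands, were in 1 of the 10, that of Adcy3 at chr12:4133147-4133446, and in 3.73% of 32851 promoters of the same length. The cyclic AMP response element TGACGTCA was in 0 of 10, with 1.79% over all promoters, and its core TGACG, which overlaps it, in 2 of 10, those of Adcy7 and Adcy9, with 20.8% over all. The E-box CAGCTG was in 0 of 10, with 16.3% over all. A match is a description of the letters and no measured site. Promoters of Adcy6 and Adcy8 were not analysed here.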

How the data were processed

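RNA was measured in 6 soft palate libraries, isolated with a column kit per the labels' protocols. The submitters' processing notes name STAR and mm10. The sources used here do not give the library kit, strand, counting step or annotation. The authors deposited values in CPM for 21938 genes, with a constant of 0.0001 in each as found from the values. Whole reads were recovered for 63.8% to 66.9% of low values (within 0.02 read), so no count test was run. Values were tested as log2(CPM + 1) with limma 3.58.1 in R 4.3.3 (variance trend, no filter, no covariate), with Benjamini-Hochberg adjustment over all genes. The test was tried on simulated data with the same spread between libraries set for every gene, which lends no support to single calls here. Exon lengths and positions came from GENCODE vM21 (GRCm38), matched by symbol. The text names the 9 members, Ctnnb1, Osr2 and Axin2, in each pathway list every called gene and the 2 with the smallest p, and the 5 genes most like Adcy8. Genes named outside that rule were chosen after their values were seen. The members and lists were chosen with earlier results of these data known. Alternatives were a pseudocount of 0.1, a mean of at least 1 CPM, rescaled libraries, no variance trend, each library left out and, added after seeing the data, a sex covariate read from Xist.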

Additional observations from a re-analysis of the deposited data

How the results depend on the processing

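Genes called between mutant and control numbered 105 as reported, 95 with a pseudocount of 0.1, 135 with the filter and 114 with rescaled libraries. They numbered 0 without the variance trend (4516 at an unadjusted limma p below 0.05), 0 with the sex covariate (4356) and 0 to 452 with each library left out (452 without control 2, 2 without mutant 7, 0 without each of the others); the cause was not tested. Of 99 member values under alternatives, 87 kept sign and side of the threshold, 7 lost the Adcy8 call and 5 turned sign. The Adcy8 adjusted p was 0.0702 without the trend and 0.0519 with the sex covariate. Adcy6 was 0.0079 with rescaled libraries and -0.18 to 0.10 with a library left out, and Adcy5 -0.29 to 0.0075. With 3 libraries a group and about 40 mutant Adcy8 reads, smaller changes would be missed. No paired analysis was possible because the groups share no replicate numbers.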
